A study of Homo sapiens with 3 samples.

Results

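The enzymes that build purine and pyrimidine nucleotides from small precursors were followed across 3 Illumina arrays of RWPE1, an established benign line of human prostate epithelium. They were chosen by name: CAD, UMPS and CTPS1 for the pyrimidine arm, and PPAT, GART, PAICS, ATIC, IMPDH1, IMPDH2 and GMPS for the purine arm. Of these 10 genes, 9 have at least 1 probe in the platform annotation, out of 16922 genes named on the array, and GMPS is named for 0 probes and was not analysed here. The 9 genes are read by 15 probes. Of these, 10 probes were above background on all 3 arrays and 5 on none, which leaves 8 measured genes, all but UMPS, each above background on every array. The groups were cells labelled as overexpressing MYC, cells carrying a constitutively active PI3K mutant (E545K), and cells with the empty vector PMN. All were made by retroviral infection and grown without further treatment in keratinocyte serum-free medium with bovine pituitary extract and 5 ng/ml EGF, so the vector cells were infected and received growth factor too. Each group is 1 array of total RNA. The labels do not say whether the infected cells were a pool or a clone.

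Pyrimidine synthesis assembles the ring first and then attaches ribose phosphate, while purine synthesis builds its ring stepwise on ribose phosphate. CAD carries out the opening steps of the pyrimidine arm, UMPS completes UMP, and CTPS1 converts UTP to CTP. In the purine arm PPAT catalyses the committed step, GART and PAICS carry out steps between, and ATIC finishes inosine monophosphate (IMP). IMP then divides between adenine and guanine nucleotides, and IMPDH1 and IMPDH2 are the enzymes that commit it to guanine, with GMPS acting after them. Proliferating cells draw on these enzymes for RNA and DNA. In other cell systems MYC binds the promoters of many of these genes, and signalling downstream of PI3K acts on CAD protein, which an mRNA array does not read.

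The levels below are scaled signals, the fluorescence of a probe with every array put on the vector array's scale through the authors' deposited log2 columns. They compare 1 probe between arrays and not 1 probe with another. With 1 array per group there is no spread between replicates and no test, and every difference describes these arrays only. The error that can be had is technical: across 719 genes with 2 probes, the SD of a log2 difference was 0.20 for MYC minus vector, 0.21 for PI3K minus vector and 0.18 for MYC minus PI3K. This SD comes from how far 2 probes of a gene disagree on the same arrays. It leaves out differences between cultures, labellings or arrays that both probes share. The single MYC probe read 5229 on the array labelled MYC, 3520 on the PI3K array and 6229 on the vector array, so its level on the first array was not above that on the vector array, against the label. Where that probe lies relative to the introduced sequence is not known here. PIK3CA is named for 0 probes. Each direction drawn from the array labelled MYC rests on its label. Of the 5 measured basal epithelial markers, 4 were above background on the array labelled MYC and 5 on each other array, with KRT15 the one not above it. KRT5, KRT14 and KRT15 were highest on the vector array, ITGB4 on the PI3K array and LAMB3 on the array labelled MYC. Their summed scaled signal was 21052 on the array labelled MYC, 35074 on the PI3K array and 51201 on the vector array, and its part in the enzymes' values was not tested. The epithelial list had 4 measured genes, EPCAM, CDH1, KRT8 and KRT18, with KRT18 above background on the array labelled MYC alone. The leukocyte list had 2, CD68, above background on every array, and CD14, above it on the vector array alone. Luminal prostate, stromal and endothelial markers had 0 measured genes.

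CAD had a scaled signal of 1316 on the array labelled MYC, 1018 on the PI3K array and 544.4 on the vector array. Both oncogene arrays lay well above the vector. CTPS1 followed the same order, with 1738 on the array labelled MYC, 1469 on the PI3K array and 978.6 on the vector array. The only UMPS probe was not above background on any array, at 171 on the array labelled MYC, 152 on the PI3K array and 117 on the vector array. Its detection p-values were 0.114 (array labelled MYC) and 0.188 (vector array), so no fold is given for UMPS. Dim probes as a class run higher on the oncogene arrays on this scale. The 14261 probes above background on no array had a median log2 difference of 0.31 for MYC minus vector and 0.27 for PI3K minus vector, against 0.10 and 0.08 for the 8395 probes above background on every array.

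**Figure D1:**
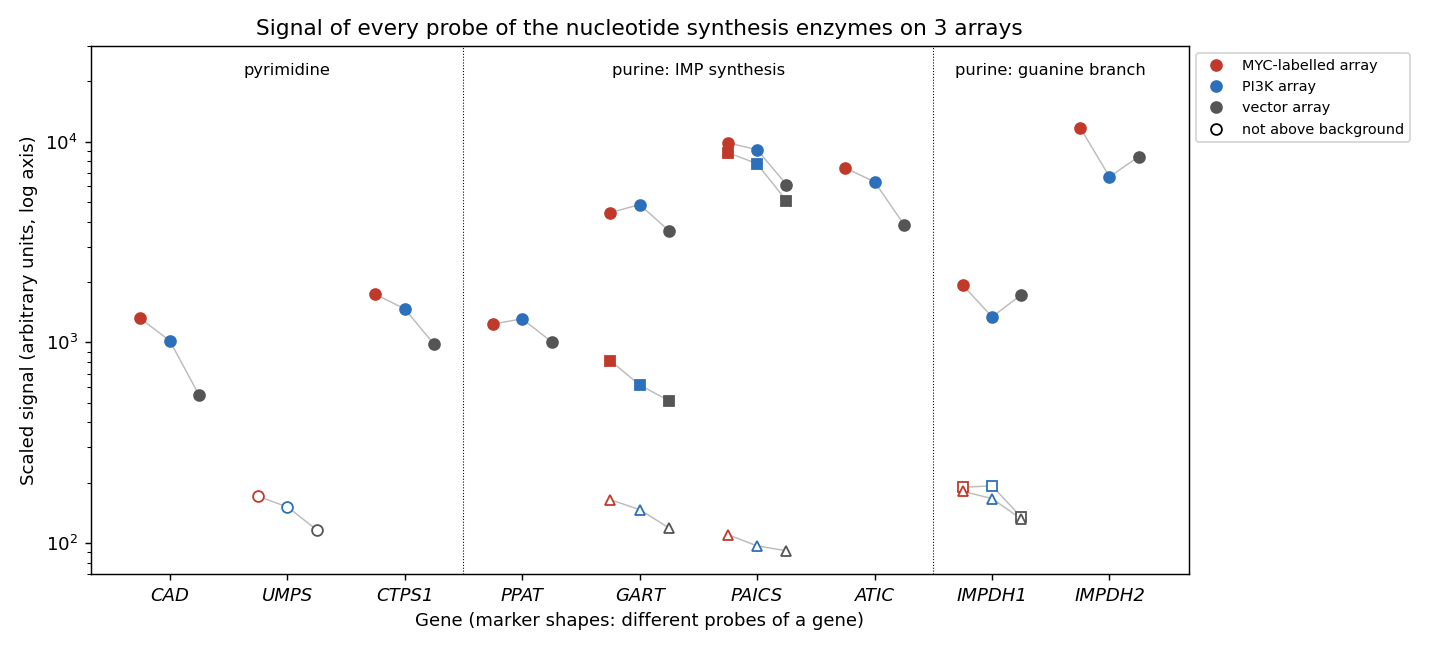
Scaled signal (log axis, arbitrary units) of each of the 15 probes on the array labelled MYC, the PI3K array and the vector array. Lines join 1 probe across arrays, filled markers are above background and open markers are not. Among probes above background, those of CAD, CTPS1, PPAT, GART, PAICS and ATIC are lowest on the vector array, while those of IMPDH1 and IMPDH2 are lowest on the PI3K array.

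PPAT, GART, PAICS and ATIC, the 4 chosen enzymes of IMP synthesis, were lowest on the vector array. PPAT read 1235 on the array labelled MYC, 1311 on the PI3K array and 1008 on the vector array. GART, which carries 3 activities of the pathway in 1 protein, read 4434 on the array labelled MYC, 4861 on the PI3K array and 3600 on the vector array by its brightest probe. For both genes the PI3K array was slightly the highest of the 3. A second GART probe, annotated to a different transcript of the gene, gave 812 on the array labelled MYC, 613 on the PI3K array and 513 on the vector array, so the GART probes disagree on which oncogene array is higher. PAICS, which joins carboxylation to the next condensation, read 9878 on the array labelled MYC, 9123 on the PI3K array and 6120 on the vector array. Its second probe ran in the same order, at 8829, 7765 and 5078 on those arrays. ATIC read 7403 on the array labelled MYC, 6308 on the PI3K array and 3866 on the vector array, again with both oncogene arrays apart from the vector. The third probes of GART and PAICS were not above background on any array.

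The guanine branch had another order. IMPDH2, the isoform usually raised in proliferating cells, read 11766 on the array labelled MYC, 6683 on the PI3K array and 8435 on the vector array. IMPDH1 read 1933 on the array labelled MYC, 1340 on the PI3K array and 1729 on the vector array. Both isoforms were therefore lowest on the PI3K array. So were the purine genes ADSL and ADSS1, which are outside the chosen list and described below. For ADSL the difference from the vector was within the technical error. The other 2 IMPDH1 probes were not above background on any array, so each isoform rests on 1 probe. The isoforms are similar in sequence, and how far their probes tell them apart was not tested.

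Promoters are shown for ATIC and PAICS as windows that hold the motif described here, and for CAD as the gene with the highest difference from the vector on both oncogene arrays. CTPS1, PPAT and GART were also higher on both. Windows run from 250 bases before to 50 bases after the start site (RefSeq, GRCh38.p14). Capitals mark the canonical E-box CACGTG, the motif that MYC with its partner MAX is known to bind. The motif is its own reverse complement, so 1 search covers both strands, and no other motif was searched. ATIC is at chr2:215311809-215312108 (plus strand), PAICS at chr4:56435502-56435801 (plus strand) and CAD at chr2:27217119-27217418 (plus strand).
ATIC: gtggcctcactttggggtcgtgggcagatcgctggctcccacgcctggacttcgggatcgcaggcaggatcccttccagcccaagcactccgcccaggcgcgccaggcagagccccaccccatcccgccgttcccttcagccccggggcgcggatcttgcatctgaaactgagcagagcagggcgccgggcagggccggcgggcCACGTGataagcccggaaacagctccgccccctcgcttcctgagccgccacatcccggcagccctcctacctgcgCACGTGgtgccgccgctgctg
PAICS: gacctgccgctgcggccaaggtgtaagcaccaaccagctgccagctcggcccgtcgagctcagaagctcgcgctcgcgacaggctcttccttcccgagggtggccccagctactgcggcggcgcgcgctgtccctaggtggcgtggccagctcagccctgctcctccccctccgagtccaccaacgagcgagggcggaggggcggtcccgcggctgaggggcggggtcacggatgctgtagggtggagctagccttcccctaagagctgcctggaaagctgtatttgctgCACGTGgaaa
CAD: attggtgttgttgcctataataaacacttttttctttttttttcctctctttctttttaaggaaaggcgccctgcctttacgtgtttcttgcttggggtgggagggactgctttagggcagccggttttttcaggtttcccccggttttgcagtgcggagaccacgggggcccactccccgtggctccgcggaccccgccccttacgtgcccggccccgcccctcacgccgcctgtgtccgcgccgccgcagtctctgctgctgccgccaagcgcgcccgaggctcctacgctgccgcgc
The ATIC window holds 2 matches, beginning at positions -46 and 30 from the start site, where 1 is the first transcribed base. PAICS and PPAT lie head to head on chromosome 4, their windows share 236 bases, and the single match at 41 from the PAICS start is the same 6 bases as the match at -182 from the PPAT start. The other 2 PAICS windows hold 0 matches and share 0 bases with that of PPAT. No match lies in the window of CAD or in those of CTPS1, GART, UMPS, GMPS and IMPDH1. Bases outside the windows, such as those more than 50 after the start site, were not searched. A gene with no match here, CAD included, may hold the motif nearby. Of the 10 genes, 9 have at least 1 window in the table, with 14 windows in all, and 3 genes have a match. The 9 include UMPS and GMPS, which were not measured. Of all 35116 promoter windows, 7.26% hold the motif. By gene, 8.8% of the 27305 genes with a window hold it in any window, and 13.4% of the 6947 measured genes with a window do. Of the measured genes, 934 have the motif and 6013 do not. Their median log2 difference for MYC minus vector was 0.13 with the motif and 0.06 without it. For PI3K minus vector these medians were 0.09 and 0.05. Each median leaves out genes above background on neither array of the pair. These medians are a description, with no test.

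The array labelled MYC was first set against the vector array. All 8 measured enzymes were above 0, where 56.4% of the 8147 genes measured in this pair were. Their median log2 difference was 0.59, and the median of all genes was 0.07. CAD was 2.42-fold higher (log2 difference 1.27), and only 85 genes had a higher difference. It was the 1 enzyme at least 2-fold higher, a size that 2.31% of all genes reached. At least 1.5-fold higher were 4 of 8 enzymes, against 10.8% of all genes: CAD, ATIC at 0.94 (1.91-fold), CTPS1 at 0.83 (1.78-fold) and PAICS at 0.69 (1.61-fold). The second PAICS probe gave 0.80. The remaining enzymes were closer to the bulk of genes. IMPDH2 gave 0.48, GART 0.30, PPAT 0.29 and IMPDH1 0.16, and the last of these is smaller than the technical error of 0.20. The second GART probe gave 0.66, which would place GART with the stronger members. PPAT, which opens the purine arm, thus lay well below CAD, which opens the pyrimidine arm.

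The PI3K array was then set against the vector array, which both comparisons share. Of the 8 enzymes, 6 were above 0, against 55.1% of 8136 genes, with a median of 0.50 where all genes had 0.05. CAD again led, at 0.90 (1.87-fold), with 152 genes higher. ATIC followed at 0.71 (1.63-fold). CTPS1 at 0.59 and PAICS at 0.58 lay on either side of 1.5-fold (1.501-fold and 1.491-fold), and the second PAICS probe passed it at 0.61. That makes 3 of 8 enzymes at least 1.5-fold higher, against 8.54% of all genes, and 0 at least 2-fold higher, against 1.20%. GART gave 0.43 and PPAT 0.38, and the second GART probe gave 0.26. The guanine enzymes lay on the other side of 0, with IMPDH1 at -0.37 (1.29-fold lower) and IMPDH2 at -0.34 (1.26-fold lower). Neither reached 1.5-fold lower, a size that 9.78% of all genes reached. Each lies beyond the technical error of 0.21, but by less than that error again.

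**Figure D2:**
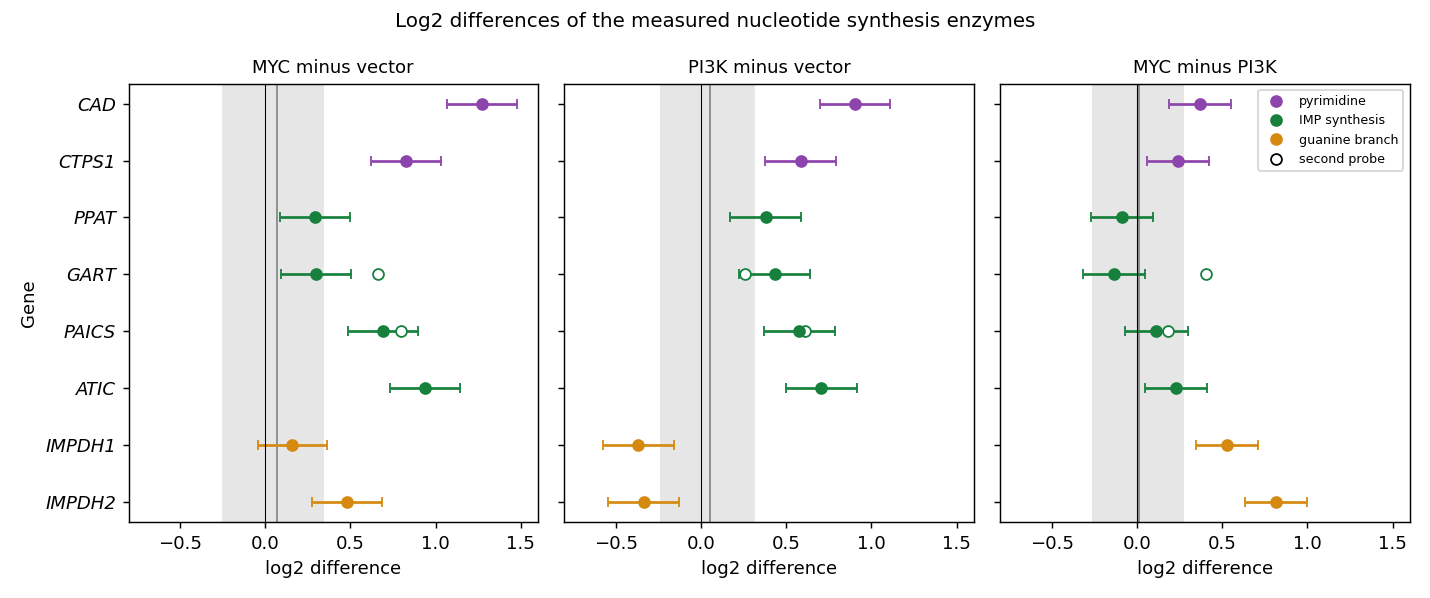
Log2 difference of the 8 measured enzymes for the array labelled MYC minus vector, PI3K minus vector, and MYC minus PI3K. Bars show the technical SD of a difference (0.20, 0.21 and 0.18), open circles a second probe above background, the grey band the middle 50% of all genes and the grey line their median. CAD is farthest right in both comparisons with the vector, and the guanine enzymes IMPDH1 and IMPDH2 separate from the others on the PI3K array.

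Set directly against the PI3K array, the array labelled MYC had a median enzyme difference of 0.24, where all 7805 genes measured in this pair had 0.01. Of the 8 enzymes 6 were above 0, against 51.1% of all genes. IMPDH2 had the highest difference, at 0.82 (1.76-fold), with 338 genes higher, and was the only enzyme at least 1.5-fold higher, against 9.15% of all genes. IMPDH1 followed at 0.53 (1.44-fold). At least 2-fold higher were 0 enzymes, against 2.29% of all genes. At least 1.5-fold lower were 0 enzymes, against 8.14% of all genes, and at least 2-fold lower also 0, against 2.63%. CAD gave 0.37, CTPS1 0.24, ATIC 0.23 and PAICS 0.11. PPAT at -0.09 and GART at -0.13 were below 0, within the technical error of 0.18. By its second probe GART was above 0, at 0.41.

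The arms were compared by their medians, with only CAD and CTPS1 measured in the pyrimidine arm and 6 genes in the purine arm. For MYC minus vector the pyrimidine arm had a median of 1.05 and the purine arm 0.39. For PI3K minus vector the pyrimidine arm had 0.74 and the purine arm 0.41, and for MYC minus PI3K the arms had 0.31 and 0.17. The last of these differences turned sign, to 0.012 for purine minus pyrimidine, with each gene's dimmest measured probe. The arms overlapped in all 3 comparisons, since ATIC lay above CTPS1 against the vector and IMPDH2 above CAD between the oncogene arrays. The purine arm was itself divided. The 4 IMP enzymes had medians of 0.50 for MYC minus vector, 0.50 for PI3K minus vector and 0.01 for MYC minus PI3K. The 2 guanine enzymes had 0.32, -0.35 and 0.67. Against the vector, ATIC and PAICS had higher differences than PPAT and GART. On the array labelled MYC the margin was narrow for the second GART probe, at 0.66 beside 0.69 for PAICS. This contrast covers the 4 chosen enzymes and is not one of early against late steps. PFAS, which acts between GART's activities, gave 0.92 for MYC minus vector and 0.56 for PI3K minus vector. ADSL, also of IMP synthesis, gave 0.51 and -0.19.

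Other genes of de novo synthesis were read alongside. Of the 6 other purine genes 5 were measured and ADSS2 is named for 0 probes. PFAS, which acts between GART's activities, had scaled signals of 1685 on the array labelled MYC, 1312 on the PI3K array and 890 on the vector array, with log2 differences from the vector of 0.92 and 0.56. The ribose phosphate suppliers PRPS2 (0.69 and 0.65) and PRPS1 (0.32 and 0.50) were higher on both oncogene arrays. ADSL, which acts in IMP synthesis and again in the adenine branch, read 5955 on the array labelled MYC, 3666 on the PI3K array and 4186 on the vector array. Its differences from the vector were 0.51 for MYC and -0.19 for PI3K, and the second of these is within the technical error. ADSS1, which opens the adenine branch, was lower on both, at -0.30 and -0.80. DHODH, the mitochondrial step between CAD and UMPS, was above background on the array labelled MYC alone, at 309.5, with 175.5 on the PI3K array and 122.5 on the vector array. Its level on the array labelled MYC was at least 1.33-fold that on the vector array. CTPS2 gave 0.13 for MYC and 0.26 for PI3K.

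**Figure D3:**
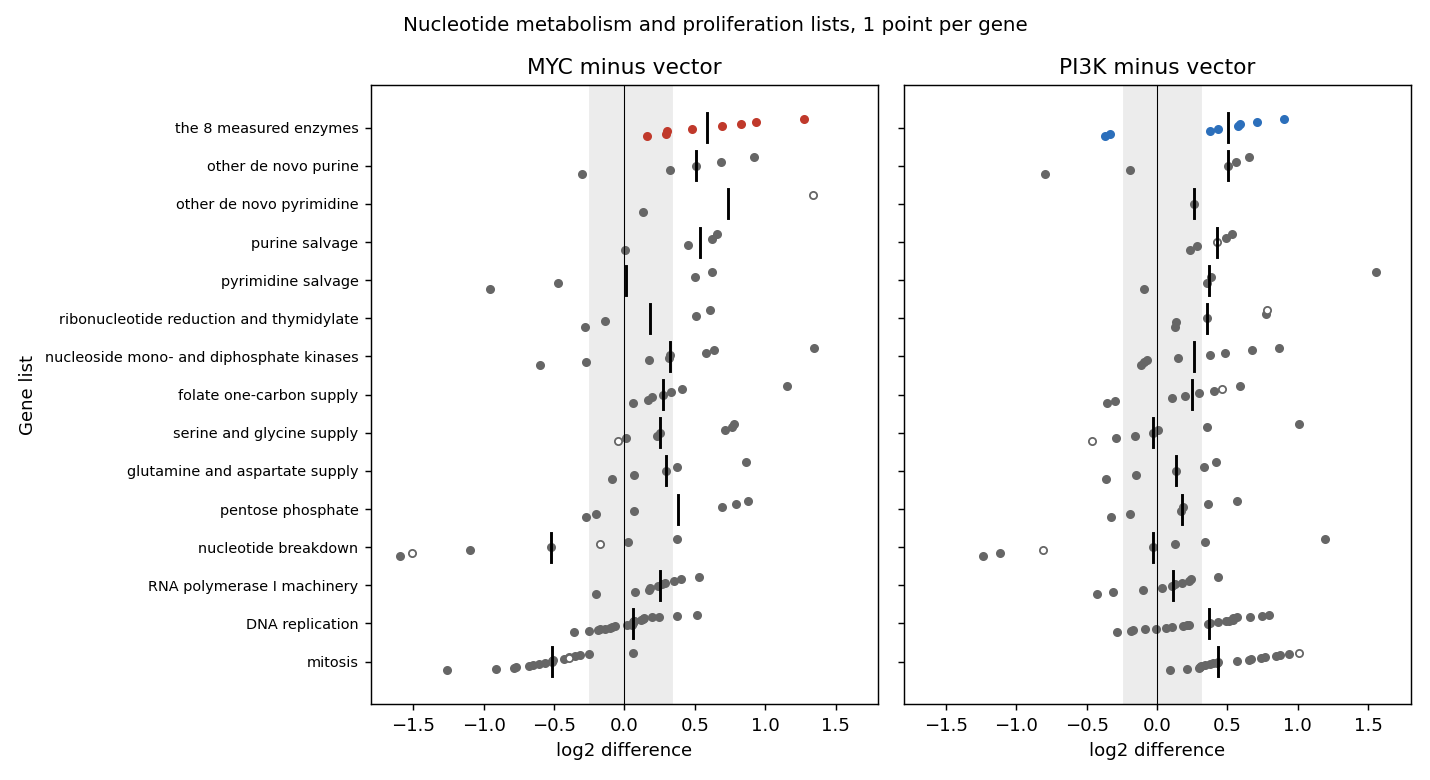
Log2 difference of each measured gene in the 8 enzymes and 14 other lists, for MYC minus vector and PI3K minus vector. Black bars are list medians, the grey band is the middle 50% of all genes, and open circles are genes above background on 1 array of the pair. Mitosis genes lie mostly below 0 on the array labelled MYC and above 0 on the PI3K array, while the 8 enzymes have similar medians in both.

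Genes that supply or recycle nucleotides had smaller list medians, and 2-fold differences in them were few. Purine salvage had a median of 0.54 for MYC minus vector (4 measured) and 0.42 for PI3K minus vector (5 measured), with 0 genes 2-fold apart. Its extremes for MYC were the adenosine deaminase ADA at 0.66 and the hypoxanthine salvage enzyme HPRT1 at 0.00. For PI3K they were the adenine salvage enzyme APRT at 0.53 and ADA at 0.24. Pyrimidine salvage was split, with medians of 0.01 for MYC and 0.37 for PI3K over 4 genes. The thymidine kinase TK1 read 880 on the array labelled MYC, 2233 on the PI3K array and 1709 on the vector array, and the cytidine deaminase CDA read 898, 1865 and 635 on those arrays. CDA was 2.94-fold higher on the PI3K array than on the vector array. The uridine kinase UCK2 gave 0.62 for MYC and 0.36 for PI3K, and UPRT gave -0.47 and -0.09.

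Among enzymes that make deoxynucleotides the medians were 0.18 for MYC (4 measured) and 0.36 for PI3K (5 measured). The reductase subunit RRM2 was above background on the PI3K array alone, at least 1.56-fold higher there than on the vector array and at least 1.28-fold lower on the array labelled MYC than on the PI3K array. The large subunit RRM1 gave -0.28 for MYC and 0.36 for PI3K, and the alternative small subunit RRM2B gave 0.61 and 0.13. Nucleoside phosphate kinases had medians of 0.32 and 0.26 over 8 genes. NME2 was highest in both, at 1.35 and 0.87 by its brightest probe, but 2 other NME2 probes above background gave 0.34 and 0.20 for MYC. The guanylate kinase GUK1 was lowest for MYC at -0.60, and NME6 for PI3K at -0.11.

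Folate enzymes, which donate the carbons that GART and ATIC insert, had medians of 0.27 for MYC (7 measured) and 0.25 for PI3K (8 measured). All 7 were above 0 for MYC, against 56.4% of all genes. The mitochondrial formate producer MTHFD1L stood out there at 1.16 (2.23-fold) and MTHFS was lowest at 0.06. For PI3K the folate enzymes ran from MTHFD1 at 0.59 to MTHFD2 at -0.35. Serine and glycine genes had medians of 0.25 and -0.03 over 7 genes, with the serine enzyme PSPH at 0.78 for MYC and -0.29 for PI3K. The glycine decarboxylase GLDC was at 0.25 for MYC and 1.01 for PI3K. The glycine cleavage component AMT had the lowest measured value in both, at -0.05 and -0.46. It was above background on the vector array alone, at 239.5, and was at least 1-fold lower in each, a bound that sets no difference. Glutamine and aspartate genes had medians of 0.29 and 0.14 over 5 genes, running from ASNS at 0.86 to the transporter SLC1A5 at -0.09 for MYC, and from GOT2 at 0.42 to SLC1A5 at -0.36 for PI3K. Pentose phosphate genes, which lead to ribose phosphate, had medians of 0.38 and 0.18 over 6 genes. Here PGLS gave 0.87 for MYC and -0.19 for PI3K, PGD 0.79 and 0.57, TALDO1 -0.28 and 0.17, and TKT 0.06 and -0.33.

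Nucleotide breakdown genes lay the other way on the array labelled MYC. Their median was -0.52 for MYC minus vector and -0.03 for PI3K minus vector over 7 genes. The cell-surface nucleotidase NT5E read 345 on the array labelled MYC, 441 on the PI3K array and 1040 on the vector array, and the pyrimidine nucleotidase NT5C3A read 2983, 2953 and 6386 on those arrays. These were log2 differences of -1.59 and -1.24 for NT5E and -1.10 and -1.11 for NT5C3A, with 4.77% of all genes at least 2-fold lower for MYC and 4.03% for PI3K. The pyrimidine dehydrogenase DPYD was above background on the vector array alone, at least 1.68-fold lower on each oncogene array. It read 271.6 on the PI3K array, under the cut-off of 283.7 assumed for that array. XDH, which makes uric acid, was 2.29-fold higher on the PI3K array than on the vector array. NT5C was highest for MYC, at 0.37.

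Genes of cell division lay on opposite sides of 0 on the oncogene arrays. Mitosis genes had a median of -0.51 for MYC minus vector, with 17 of 18 below 0, and 0.43 for PI3K minus vector, with 19 of 19 above 0. Of all genes, 56.4% were above 0 for MYC minus vector and 55.1% for PI3K minus vector. DNA replication genes had medians of 0.06 and 0.37 over 22 genes. RNA polymerase I genes, whose product is a large consumer of nucleotides, had 0.25 and 0.12 over 10 genes. Housekeeping genes had 0.00 and 0.22 over 9 genes. Interferon-stimulated genes were at least 2-fold lower in 11 of 11 for MYC and 10 of 11 for PI3K, against 4.77% and 4.03% of all genes. The exception for PI3K was IFI6, at 0.31 by the probe used, while its other probe gave -4.05. The part of these differences in the enzymes' values was not tested, and in a bulk RNA sample fewer cells of a kind and less RNA per cell cannot be told apart.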

How the data were processed

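Total RNA from 3 RWPE1 cultures, 1 per group, was labelled as biotinylated cRNA and read on an Illumina array, per the labels' protocols. The submitters' processing notes name GenomeStudio. The authors deposited linear signal intensity values without normalisation, per the file headers, with a detection fraction that rises with signal (rank correlation 0.981 for MYC and 0.976 for vector) and was taken as 1 minus a detection p-value. These were used for the MYC and vector arrays, and 2 further columns of sample values, whose names match no label, were left out. The authors also deposited log2 values for all 3 arrays. Their MYC minus vector difference equalled the log2 signal ratio plus 0.52 at every probe, as follows from scaling each array to its 75th percentile (393.8 for MYC and 563.5 for vector). Scale and direction are thereby settled for this pair and were assumed for PI3K, while the constant taken from each probe is of unknown origin. The column medians are 0.07 for MYC, 0.04 for PI3K and -0.16 for vector.

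Scaled signals are the vector signal times 2 to the power of the deposited difference. A probe was above background at a detection p-value under 0.01, or on the PI3K array, which has no usable detection value, at a scaled signal of at least 283.7. That cut-off was taken from the array labelled MYC, where it is the lowest scaled signal above background. On the vector array the lowest was 233.3. A gene took its brightest probe above background on at least 1 array (8270 genes). Of 24526 probes, 21834 have 1 gene symbol, 0 several and 2692 none here, and 21813 were matched by gene ID to current RefSeq symbols. Comparisons cover genes above background on at least 1 array of the pair. A gene above background on 1 array only is given as at least a fold, computed against the lowest signal above background on the dim array, or against the probe's own signal there if that is higher. Their number, 1 array per group, limits precision. Members, lists and thresholds (2-fold and 1.5-fold) were chosen with earlier results of these data known. Named were all enzymes with every probe above background, other de novo genes, and in each nucleotide list the highest and lowest genes and those 2-fold apart from the vector. Other lists are given as counts or medians, with cell type markers and IFI6 also named. Alternatives were normexp (offset 50) with quantile normalisation (limma 3.58.1, R 4.3.3), quantile alone, median centring, detection at 0.05 or no filter, and other choices of probe. The calculation was tested on simulated data (Python 3.11.15).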

Additional observations from a re-analysis of the deposited data

How the results depend on the processing

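Over the alternatives, the enzyme median ranged from 0.55 to 0.73 for MYC minus vector, from 0.43 to 0.50 for PI3K minus vector and from 0.21 to 0.31 for MYC minus PI3K. The counts at least 2-fold higher stayed at 1, 0 and 0 in those comparisons, and the counts above 0 ran from 8 to 9, 6 to 7 and 6 to 7. The purine minus pyrimidine median ranged from -0.69 to -0.44 for MYC minus vector and from -0.43 to -0.18 for PI3K minus vector, with -0.44 and -0.18 (against -0.66 and -0.34) from the setting with no detection filter, which adds UMPS below background. For MYC minus PI3K it was 0.012 with the dimmest probe of each gene, against -0.13, a turn of sign. Single enzymes moved by more than the technical error in 3 of 168 recalculations, all for GART. With its dimmest measured probe GART gave 0.66 for MYC minus vector. For MYC minus PI3K it gave 0.41 with that probe and 0.14 with probes averaged, against -0.13. Many of the 168 could not move, so they give no rate of stability. The detection settings returned the main value for every measured enzyme, and the choice of probe could change only GART and PAICS. IMPDH1 and IMPDH2 stayed below 0 for PI3K minus vector under the other normalisations and median centring. With the main value included, IMPDH1 ran from -0.39 to -0.35 and IMPDH2 from -0.41 to -0.34. Each has 1 measured probe, so the detection and probe settings could not change its value. CAD, also with 1 measured probe, ranged from 1.26 to 1.27 for MYC minus vector. The dim-probe shift of 0.31 for MYC minus vector was 0.03 after normexp and quantile normalisation. No paired analysis was possible because each group has 1 array. Signal over background limits UMPS and DHODH.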
